A study of Mus musculus with 8 samples.

Results

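Fibronectin, tenascin-C, periostin and versican are matrix proteins whose transcripts are alternatively spliced. They were examined together with 2 smaller secreted matrix proteins, as the 6 genes Fn1, Tnc, Postn, Vcan, Tgfbi and Cthrc1, in mesenchymal stromal cells (MSCs) from mouse pancreas and white adipose tissue. The genes were chosen by name, and every annotated transcript of theirs was taken, which gave 48 of the 136535 transcripts in the deposited table and 6 of its 54116 genes. Fn1 had 17 of these transcripts, Postn and Vcan had 9 each, Tgfbi had 5, and Tnc and Cthrc1 had 4 each. The mean over the 8 libraries reached 1 FPKM (fragments mapped to a transcript, scaled to its length and to the fragments of the library) for 30 of the 48 transcripts, and 1 of the 48, Vcan-204, was listed at 0 in every library.

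All 8 libraries were RNA-seq of untreated cells from male C57BL/6J mice aged 8 weeks on a standard diet, and pancreas and inguinal white adipose tissue (iWAT) were taken from the same animals. The pancreas cells (pMSCs, 4 libraries) and the iWAT cells (iwatMSCs, 4 libraries) were sorted as CD31-, CD45- and SCA1+, pooled over several mice and expanded in culture for 4 days. The labels name no transgene or Cre. It is not stated whether libraries of the same organ were made from different pools, so the p-values measure the spread between these libraries, which may be technical. The replicate numbers 1 to 4 only name the libraries within a group.

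The sorted phenotype was seen in the transcripts. Ly6a, which encodes SCA1, was at 84.9 ± 19.6 FPKM (SD, n = 4) in pMSCs and 148 ± 60.5 in iwatMSCs, whereas Pecam1, which encodes CD31, was at 0.482 FPKM or less and Ptprc, which encodes CD45, at 0.0327 or less in every library. All 9 stromal markers passed 1 FPKM, and their summed level was 2241 to 2557 FPKM in pMSCs and 2599 to 2968 in iwatMSCs. The 7 pancreatic acinar markers summed to 281, 161, 51.9 and 67.2 FPKM in pMSC libraries 1 to 4 and to 1.74 to 3.69 in iwatMSCs, and all 7 were higher in pMSCs. The 7 pericyte and smooth muscle markers summed to 1195, 1261, 680 and 580 FPKM in pMSC libraries 1 to 4 and to 170, 141, 382 and 346 in iwatMSC libraries 1 to 4. Most of these sums came from Acta2 (574 ± 223 FPKM in pMSCs and 175 ± 85.8 in iwatMSCs) and Tagln (327 ± 123 and 78.9 ± 34.8). Of the 7 markers 5 were tested and 4 were higher in pMSCs, beside 9.02% of all genes. Besides Acta2 and Tagln these were Cspg4 (6.06 ± 1.52 FPKM in pMSCs and 1.02 ± 0.161 in iwatMSCs) and Des (16.2 ± 3.47 and 2.88 ± 0.948). Rgs5 and Myh11 stayed under 1 FPKM in every library. The paper counts Acta2 among its fibrogenesis markers, so the sums are not specific to pericytes or smooth muscle. The 6 leukocyte and macrophage markers summed to 8.52 to 10.7 FPKM in pMSCs and 18.5 to 22.6 in iwatMSCs with Adgre1 at 0, the 6 mesothelial markers to 12.5 to 28.3 and 5.72 to 14.6 (in iwatMSCs almost wholly Krt19, with Upk3b, Lrrn4 and Krt8 at 0 and 4 of 5 tested markers higher in pMSCs), the 4 epithelial markers to 8.35 to 21.2 and 0.117 to 0.211, and the 4 mature adipocyte markers to 0.455 to 0.950 over all libraries. Among the leukocyte and macrophage markers, Cd68 (2.45 ± 1.16 FPKM in pMSCs and 8.30 ± 1.94 in iwatMSCs) and Csf1r (3.65 ± 0.231 and 8.69 ± 0.617) were lower in pMSCs. Lyz2 went the other way (1.12 ± 0.424 and 0.116 ± 0.125), and Cd14 was similar (2.47 ± 0.299 and 2.52 ± 0.382). The 4 endothelial markers (Tie1 at 0) summed to 0.502 to 2.15 FPKM and the 4 Schwann cell markers (Sox10 at 0) to 0.499 to 2.37 over all libraries. In these bulk samples fewer cells of a type and less RNA per cell cannot be told apart, and the part of such cells in the results was not tested. Depth is unknown because only FPKM were given. The libraries summed to 437894 to 458616 FPKM, and 13092 to 13313 genes reached 1 FPKM in each.

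Fibronectin is secreted by stromal cells as a dimer and is assembled at the cell surface, through integrins, into fibrils on which other matrix proteins are laid down. Its primary transcript can include or skip the exons EDB and EDA, each of which encodes a whole fibronectin type III repeat. Inclusion of these exons marks the cellular form of the protein made by fibroblasts, as opposed to the plasma form made by hepatocytes. Tenascin-C is a large glycoprotein with a variable number of type III repeats that is raised in development and wound repair. Periostin and the product of Tgfbi are paralogous fasciclin-domain proteins, and the tail of periostin is encoded by exons that are spliced in or out. Versican is a large proteoglycan that binds hyaluronan, and its exons 7 and 8 encode the stretches that carry chondroitin sulfate chains. Cthrc1 encodes a secreted glycoprotein with a short collagen-like repeat that is made by activated fibroblasts.

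The following alternative exons are shown because the exon results rest on them. They are read 5′ to 3′ on the transcribed strand from the GENCODE M21 transcripts (mouse build GRCm38), and capitals mark the letters GAAGA, the beginning of the purine-rich splicing enhancer known from the human EDA exon. EDB is exon 25 of Fn1-201 and lies at chr1:71613763-71614035 on the minus strand, and EDA lies at chr1:71603660-71603929. The first Postn exon is exon 17 of Postn-203 and lies at chr3:54380412-54380492 on the plus strand, and the last one is exon 20 of Postn-201 and lies at chr3:54385671-54385754.
Fn1 EDB: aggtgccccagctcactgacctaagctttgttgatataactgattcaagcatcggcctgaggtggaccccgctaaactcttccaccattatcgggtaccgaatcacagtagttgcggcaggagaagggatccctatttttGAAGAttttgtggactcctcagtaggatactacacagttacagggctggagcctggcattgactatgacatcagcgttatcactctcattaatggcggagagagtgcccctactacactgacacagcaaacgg
Fn1 EDA: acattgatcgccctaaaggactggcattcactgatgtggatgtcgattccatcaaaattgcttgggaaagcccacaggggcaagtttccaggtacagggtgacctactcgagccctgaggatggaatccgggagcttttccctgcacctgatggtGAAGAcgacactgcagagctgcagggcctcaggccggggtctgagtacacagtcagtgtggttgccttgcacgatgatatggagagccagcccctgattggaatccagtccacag
Postn exon of 81 bases: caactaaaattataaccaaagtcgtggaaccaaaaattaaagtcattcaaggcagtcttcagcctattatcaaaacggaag
Postn exon of 84 bases: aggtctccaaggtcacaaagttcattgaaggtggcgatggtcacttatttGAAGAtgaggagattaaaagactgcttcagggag
The exons are 273, 270, 81 and 84 bases long. Each length is a multiple of 3, so that skipping any of them keeps the reading frame. The GC content was 49.5% in EDB, 54.8% in EDA, 34.6% in the Postn exon of 81 bases and 44.0% in that of 84 bases. GAAGA was found, on the transcribed strand only, once in EDB at base 141, once in EDA at base 156 and once in the longer Postn exon at base 51, and 1989 of 3936 internal exons of protein-coding transcripts with a length of 250 to 290 bases held it (50.5%), as did 10177 of 36184 with a length of 70 to 100 bases (28.1%). The Postn exon of 81 bases and the Tnc exon of 273 bases described below held none. A match in these letters is a description and not a binding site.

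The 6 genes spanned a wide range of levels in both organs. Fn1 was the most abundant, with a mean of 1247 FPKM over the 8 libraries and rank 31 of 13345 tested genes. Tnc followed at 133 FPKM (rank 477), Vcan at 76.1 (rank 905), Postn at 62.4 (rank 1154), Tgfbi at 22.9 (rank 3428) and Cthrc1 at 15.4 (rank 4876). Since FPKM are scaled to transcript length, these levels can be set beside each other. The Fn1 sum and rank, however, rest mainly on transcripts not annotated as protein-coding (60.9% to 78.4% in each library), whereas all Tnc transcripts are coding. Summed over all transcripts, Fn1 exceeded Tnc by 4.95- to 16.4-fold within a library. The protein-coding Fn1 transcripts alone were at 387 ± 98.6 FPKM in pMSCs and 325 ± 83.5 in iwatMSCs (SD, n = 4). Tnc was at 129 ± 28.0 and 137 ± 9.41 FPKM, and it exceeded Vcan in 8 of 8 libraries, by 1.18- to 2.52-fold. Below these the order depended on the library. Vcan exceeded Postn in all 4 pMSC and in 2 of the 4 iwatMSC libraries, and Tgfbi exceeded Cthrc1 in all 4 pMSC and in 3 of the 4 iwatMSC libraries, so these neighbours in the order did not differ beyond their spread in iwatMSCs.

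**Figure D1:**
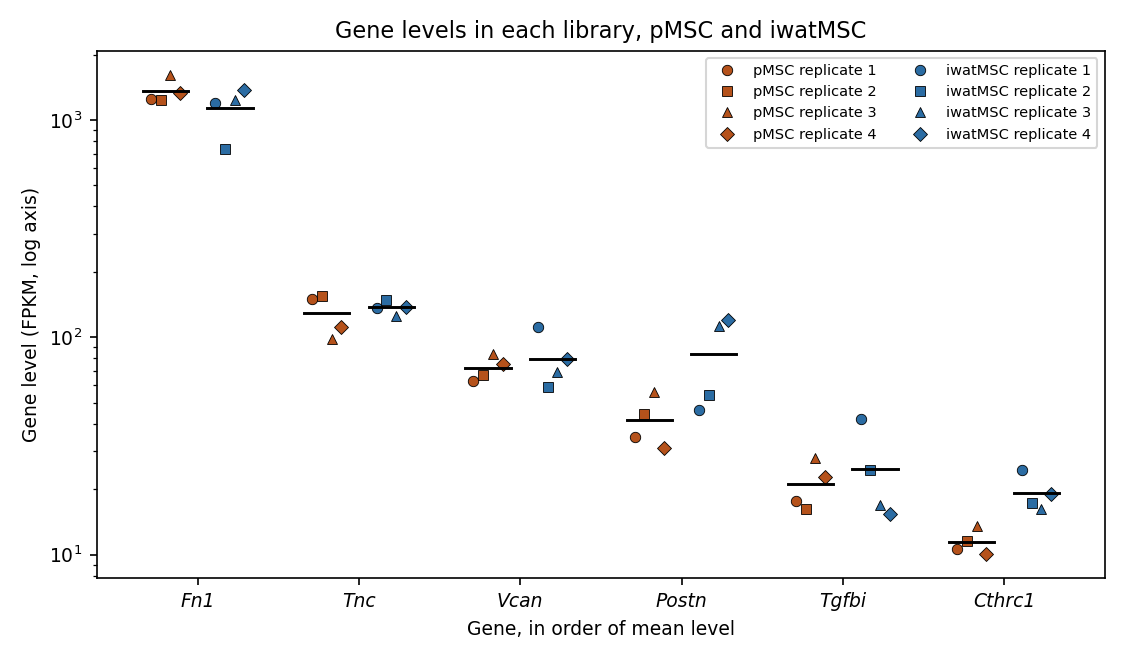
Level of each gene in each library in FPKM, summed over its transcripts, on a logarithmic axis, with 4 pMSC and 4 iwatMSC libraries drawn as single points and the group mean as a bar. Only the Cthrc1 points of the organs do not overlap, and Postn in iwatMSC libraries 3 and 4 (113 and 120 FPKM) sits above all other Postn values.

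Gene levels were compared between the organs to ask whether the matrix programme of the pancreas cells differs from that of the adipose cells. Cthrc1 was the only one of the 6 genes that passed the test over all genes, and it was lower in pMSCs. Fn1, Tnc, Postn, Vcan and Tgfbi did not pass. In the limma test on log2(FPKM + 1), with p-values adjusted by Benjamini-Hochberg over 13345 genes, 1 of the 6 genes was called, beside 19.4% of all genes (9.02% higher and 10.4% lower in pMSCs). At an unadjusted p under 0.05, 2 of the 6 passed, Cthrc1 and Postn. The share of all genes at that threshold was not computed, so nothing is read from this count. The median log2 fold change of the 6 genes was -0.13, beside -0.03 over all genes.

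Cthrc1 was at 10.7, 11.5, 13.5 and 10.1 FPKM in pMSC libraries 1 to 4 and at 24.6, 17.3, 16.2 and 19.1 FPKM in iwatMSC libraries 1 to 4. Every pMSC library lay below every iwatMSC library, and it was the only one of the 6 genes without overlap, beside 24.4% of all genes tested. The mean was 11.4 ± 1.52 FPKM in pMSCs and 19.3 ± 3.71 FPKM in iwatMSCs (SD, n = 4), a log2 fold change of -0.70 ± 0.13 (SE; adjusted p = 0.00670, limma), or 1.62-fold higher in iwatMSCs. With an unequal-variance test on FPKM, the kind of test the study applied to transcripts without adjustment, the unadjusted p of the gene was 0.0175 and the p adjusted over all genes was 0.104. The call also did not hold without pMSC libraries 1 and 2, which held the most acinar transcripts (log2 fold change -0.66, adjusted p = 0.0661). That choice was made after seeing the data. The estimate changed little, and the calls over all genes fell from 2589 to 1491 with these libraries left out. Without any single library the adjusted p was 0.00690 to 0.0233.

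Postn was at 34.7, 44.4, 55.9 and 31.0 FPKM in pMSC libraries 1 to 4 and at 46.5, 54.2, 113 and 120 FPKM in iwatMSC libraries 1 to 4. The iwatMSC libraries fell into a lower pair, inside the pMSC range, and a higher pair. The log2 fold change was -0.90 ± 0.32 (SE, 95% interval -1.63 to -0.17), with means of 41.5 ± 11.2 FPKM in pMSCs and 83.4 ± 38.4 FPKM in iwatMSCs (SD, n = 4), and the adjusted p was 0.0851 (unadjusted 0.0211, limma). The estimate was larger than that of Cthrc1 and so was the spread, since the within-group SD of Postn was at percentile 97.5 of all genes and that of Cthrc1 at 72.0. The call depended on 1 library and on the weights. Without iwatMSC library 1 the log2 fold change was -1.14 (adjusted p = 0.0291), and with array weights, which count a noisier library less, it was -1.24 (adjusted p = 0.0111). The higher pair, iwatMSC libraries 3 and 4, also had the larger sums of pericyte and smooth muscle markers among iwatMSCs (382 and 346 FPKM, beside 170 and 141). In pMSCs these sums, mostly of Acta2 and Tagln, were higher and Postn was lower, and their part in the difference was not tested.

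Fn1 was at 1251, 1233, 1615 and 1332 FPKM in pMSC libraries 1 to 4 and at 1203, 735, 1234 and 1377 FPKM in iwatMSC libraries 1 to 4. The groups overlapped, and 1 iwatMSC library lay well below the other 7. Means were 1358 ± 177 FPKM in pMSCs and 1137 ± 279 FPKM in iwatMSCs (SD, n = 4), and the log2 fold change was 0.29 ± 0.19 (SE, 95% interval -0.14 to 0.71, adjusted p = 0.327). Without iwatMSC library 2 it was 0.09. The interval in linear terms was 0.911- to 1.63-fold, so that a rise of more than 1.63-fold in pMSCs lay outside it.

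Tnc was at 150, 155, 98.3 and 112 FPKM in pMSC libraries 1 to 4 and at 137, 149, 126 and 139 FPKM in iwatMSC libraries 1 to 4. The pMSC libraries lay on both sides of the iwatMSC range, with libraries 1 and 2 above or at its upper end and 3 and 4 below it. The log2 fold change over all libraries was -0.12 ± 0.14 (SE, 95% interval -0.44 to 0.21, adjusted p = 0.616). pMSC libraries 1 and 2 were also those with the largest sums of acinar markers (281 and 161 FPKM) and of pericyte and smooth muscle markers (1195 and 1261 FPKM). Without these 2 libraries, a choice made after seeing the data, Tnc was lower in pMSCs with a log2 fold change of -0.39 ± 0.10 (adjusted p = 0.0462).

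Vcan was at 62.8, 67.3, 83.7 and 75.7 FPKM in pMSC libraries 1 to 4 and at 111, 58.9, 69.4 and 79.7 FPKM in iwatMSC libraries 1 to 4. The ranges overlapped almost entirely. The log2 fold change was -0.11 ± 0.18 (SE, 95% interval -0.51 to 0.30, adjusted p = 0.724), and it was 0.06 without iwatMSC library 1, which had the highest value. The ranges of Tgfbi overlapped too, at 17.6, 16.2, 27.9 and 22.9 FPKM in pMSC libraries 1 to 4 and at 42.1, 24.5, 16.9 and 15.4 FPKM in iwatMSC libraries 1 to 4. Its log2 fold change was -0.14 ± 0.30 (SE, 95% interval -0.81 to 0.53, adjusted p = 0.793), it was 0.15 without iwatMSC library 1, and its within-group SD was at percentile 96.6 of all genes.

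**Figure D2:**
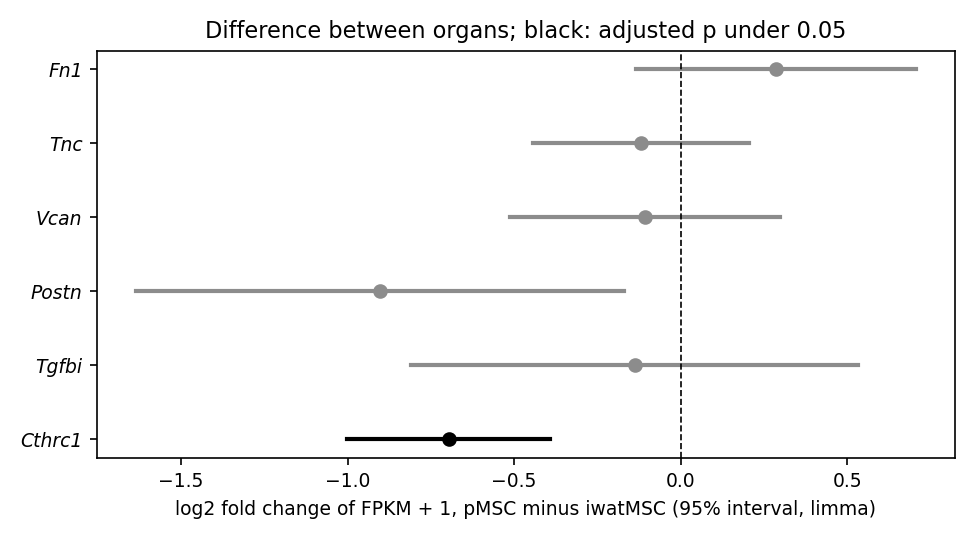
Log2 fold change of FPKM + 1 between the organs (pMSC minus iwatMSC) for each gene, with points for the limma estimate and lines for its 95% interval; black marks an adjusted p under 0.05. Cthrc1 (-0.70) alone is drawn in black, and Postn (-0.90) has the widest interval.

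Among genes that averaged at least 5 FPKM, those whose pattern over the 8 libraries was most like that of a member were found by the root mean squared difference in log2(FPKM + 1) after subtracting each gene's own mean. For Cthrc1 these were Ntn1 (0.0834), Trio (0.108) and Il1rl2 (0.115), and for Tgfbi they were Hmgcs1 (0.129), Stard4 (0.151) and Lss (0.181), of which Hmgcs1 and Lss are enzymes of cholesterol synthesis. For Postn they were Btg2 (0.317), Mdm2 (0.336) and Slc5a3 (0.340). The values for Postn exceeded those for every other member. The measure grows with the spread of the gene itself, and that of Postn was wide (within-group SD at percentile 97.5), so the values cannot be compared directly between members. For Fn1 the nearest were Armt1 (0.122), Fam3a (0.123) and Zbtb20 (0.129), for Tnc they were Nradd (0.0745), Trib1 (0.0848) and Smim26 (0.0872), and for Vcan they were Jak1 (0.103), Inhbb (0.106) and Sp140 (0.111). The median difference over all 8440 genes was 0.672 for Postn, 0.479 for Tgfbi, 0.414 for Cthrc1, 0.359 for Fn1, 0.319 for Vcan and 0.264 for Tnc. These values describe 8 libraries of 2 organs and carry no test.

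At the level of single transcripts, no member passed the test over all transcripts. In limma on log2(FPKM + 1), 0 of the 30 tested transcripts of the 6 genes were called, beside 5.54% of 24686 transcripts. The smallest adjusted p was 0.0743, 5 of the 30 passed an unadjusted p of 0.05, as did 18.8% of all transcripts, and the unequal-variance tests also called 0 of the 30. Within genes, 0 of 30 transcripts took a different share by the usage test, which compares a transcript with the rest of its gene, beside 0.192% of 18747 transcripts. The smallest adjusted p of usage was 0.518, 7 of the 30 passed an unadjusted p of 0.05 (7.86% of all), and the unequal-variance test on log2 values called 0 of the 30. Several of the transcripts were nevertheless divided very differently between libraries of the same organ.

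**Figure D3:**
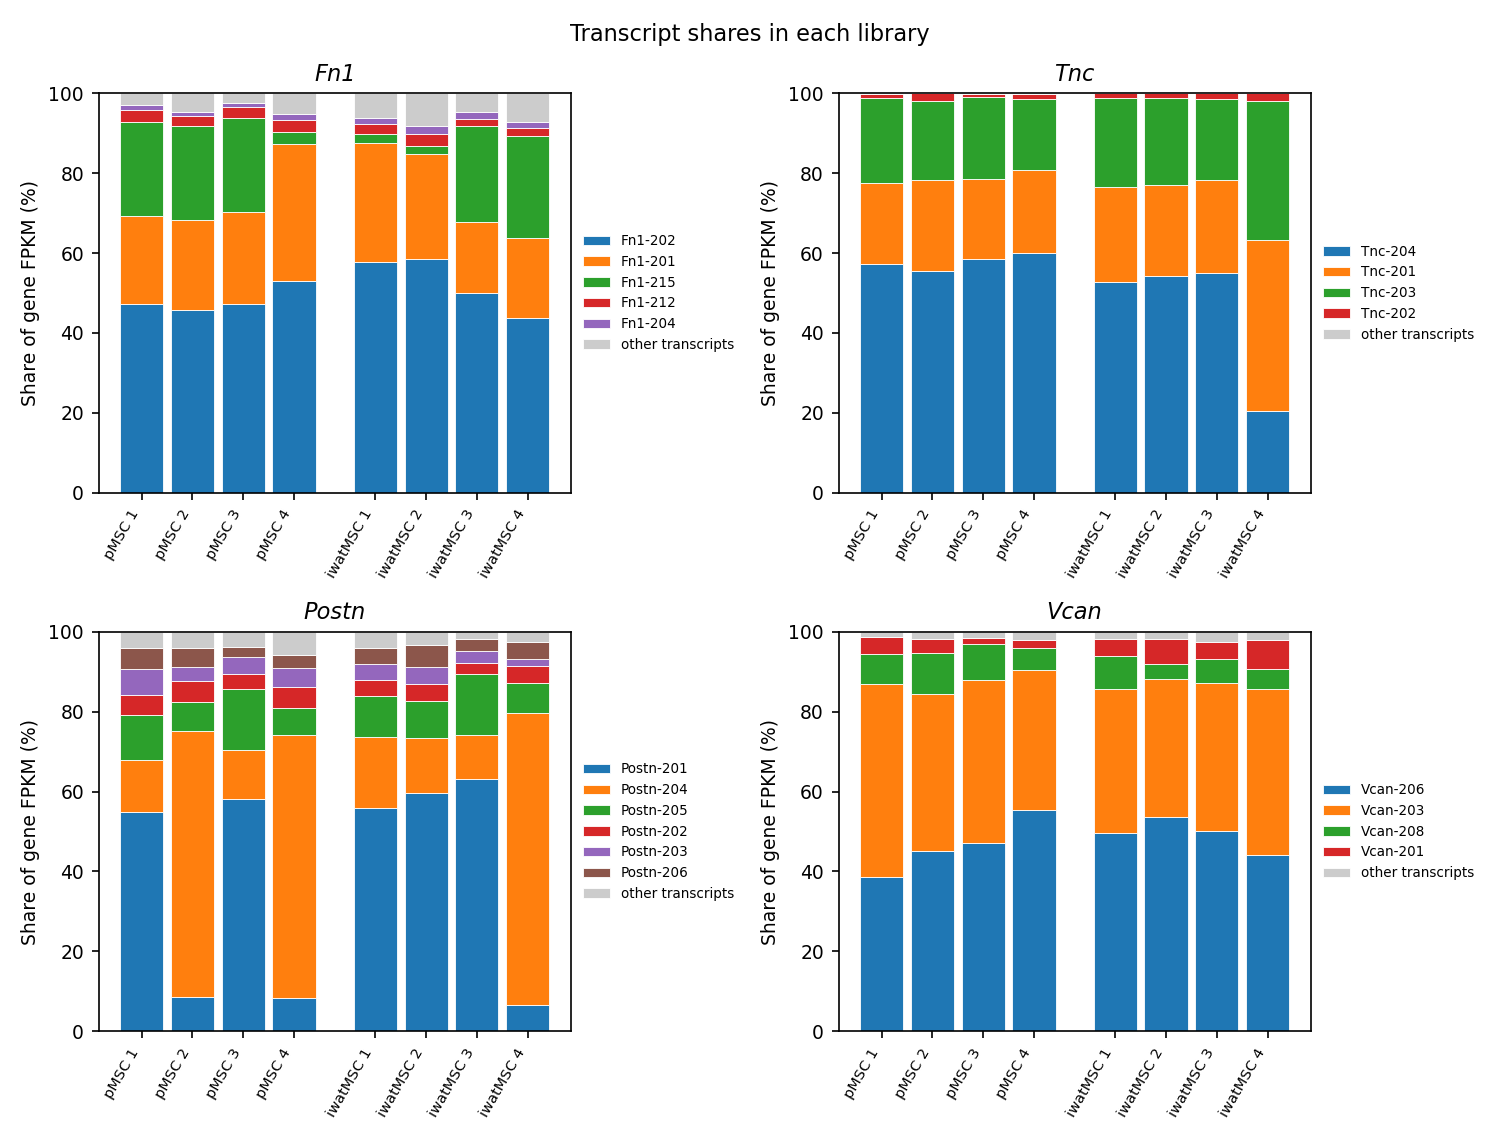
Share of each transcript in the FPKM of its gene, in percent, for Fn1, Tnc, Postn and Vcan, with 1 stacked bar per library and transcripts that average under 1% or fall outside the leading 6 joined in grey. Fn1-215, Postn-201 and Postn-204 switch between high and low shares within both organs, and Tnc-204 is low in iwatMSC library 4 (20.5%).

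Fn1 (ENSMUSG00000026193, chr1:71585520-71653200, minus strand, GRCm38) was assigned mainly to transcripts that are not annotated as protein-coding. The 8 such transcripts held 60.9% to 78.4% of its FPKM in each library. The leading one was Fn1-202, a transcript of 4022 bases annotated as retaining an intron, at 592, 565, 764 and 705 FPKM in pMSC libraries 1 to 4 and at 696, 430, 618 and 604 FPKM in iwatMSC libraries 1 to 4. It held 48.3% ± 3.14 of Fn1 in pMSCs and 52.6% ± 6.99 in iwatMSCs (SD, n = 4). The full-length coding form Fn1-201, which carries both EDB and EDA, was at 274, 278, 372 and 458 FPKM in pMSC libraries 1 to 4 and at 357, 193, 218 and 274 FPKM in iwatMSC libraries 1 to 4. It was thus highest in 2 of the pMSC libraries, but the groups overlapped and the log2 fold change was 0.41 ± 0.24 (SE, adjusted p = 0.406).

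A second Fn1 transcript with a retained intron, Fn1-215 (2778 bases), was at 296, 290, 380 and 40.7 FPKM in pMSC libraries 1 to 4 and at 26.0, 16.2, 299 and 354 FPKM in iwatMSC libraries 1 to 4. It was high in 5 libraries and low in 3, and both states occurred in both organs. Its within-group SD was at percentile 99.0 of 24686 transcripts. Summed without it, Fn1 was at 955, 943, 1235 and 1291 FPKM in pMSC libraries 1 to 4 and at 1177, 719, 935 and 1023 FPKM in iwatMSC libraries 1 to 4, so the gene-level overlap between organs remained without this transcript. On FPKM multiplied by transcript length before summing, which does not depend on how StringTie divides fragments among transcripts of different length, the Fn1 log2 fold change was 0.27 (adjusted p = 0.328).

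The 6 other full-length coding forms of Fn1 (Fn1-203, Fn1-211, Fn1-213, Fn1-214, Fn1-216 and Fn1-217) all lack EDB. Together they were at 23.5, 47.7, 27.6 and 61.0 FPKM in pMSC libraries 1 to 4 and at 63.3, 51.7, 47.6 and 88.4 FPKM in iwatMSC libraries 1 to 4. Their sum was 40.0 ± 17.6 FPKM in pMSCs and 62.8 ± 18.4 in iwatMSCs (SD, n = 4), between 1.71% and 7.03% of Fn1. Each of the 6 had a lower share in pMSCs at an unadjusted p under 0.05, with usage differences of -0.90 to -0.94 on the log2 scale. None passed adjustment over all transcripts (adjusted p = 0.518 to 0.631), and since the 6 share almost all of their exons they are not separate observations. Of the shorter forms, Fn1-212 (703 bases, retained intron) was at 37.2 ± 6.05 FPKM in pMSCs and 25.4 ± 5.10 in iwatMSCs, which did not pass (0.54 ± 0.17 on the log2 scale, SE, adjusted p = 0.124), Fn1-204 at 16.8 ± 3.12 and 18.4 ± 3.15, and Fn1-207, Fn1-208 and Fn1-210 at 0.886 to 4.87 FPKM in either group. The remaining 3, Fn1-205, Fn1-206 and Fn1-209, stayed at means under 1 FPKM.

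Inclusion of single exons was then computed as the FPKM of the transcripts that carry an exon over the FPKM of all transcripts of the gene that span it. Of the coding exons of at least 60 bases, 15 were carried by some spanning transcripts and skipped by others, and for 9 of these both forms reached 1 FPKM in both organs. Each was compared with a two-sided exact permutation test over the 70 assignments of the 8 libraries, whose smallest possible p is 0.0286, without adjustment for the 15 comparisons. Of the 9 exons, 1 differed without overlap, the Postn exon of 81 bases, beside 3.85% of 2521 such exons over all genes. A further 12 comparisons, also unadjusted, were limited to protein-coding transcripts. There EDB and EDA were separated as well, that is 3 of 9 exons beside 4.21% of 1805. The EDB and EDA ratios share transcripts.

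EDB was included in 46.2%, 45.2%, 47.7% and 81.8% of spanning FPKM in pMSC libraries 1 to 4 and in 80.0%, 73.9%, 38.6% and 38.2% in iwatMSC libraries 1 to 4. The organs overlapped fully (55.2% ± 17.8 and 57.7% ± 22.4, SD, n = 4, exact p = 1.0). The 3 libraries with high inclusion were those in which Fn1-215, which enters the ratio as a transcript without EDB, was low. Among protein-coding transcripts alone EDB inclusion was 92.1%, 85.4%, 93.1% and 88.2% in pMSC libraries 1 to 4 and 84.9%, 78.9%, 82.1% and 75.6% in iwatMSC libraries 1 to 4. Every pMSC library then lay above every iwatMSC library, with means of 89.7% ± 3.55 and 80.4% ± 4.04 (SD, n = 4, exact p = 0.0286). Fn1-201 is the only transcript in the table that carries EDB, so this comparison is that of Fn1-201 with the 6 other full-length forms.

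EDA inclusion was 34.9% ± 3.49 of spanning FPKM in pMSCs and 32.1% ± 3.19 in iwatMSCs over all transcripts (SD, n = 4, exact p = 0.4). Most of the FPKM without EDA came from Fn1-202. Among protein-coding transcripts EDA was included in 96.4%, 93.2%, 97.0% and 94.3% in pMSC libraries 1 to 4 and in 93.1%, 90.2%, 91.8% and 88.7% in iwatMSC libraries 1 to 4. The coding forms with EDA thus dominated in both organs, and their share was higher in pMSCs (95.2% ± 1.77 against 90.9% ± 1.92, SD, n = 4, exact p = 0.0286). Neither separation was seen when the transcripts with retained introns were counted. A further Fn1 exon of 106 bases, exon 39 of Fn1-214, was included in 98.8% ± 0.563 in pMSCs and 97.7% ± 0.684 in iwatMSCs (SD, n = 4, exact p = 0.0857).

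**Figure D4:**
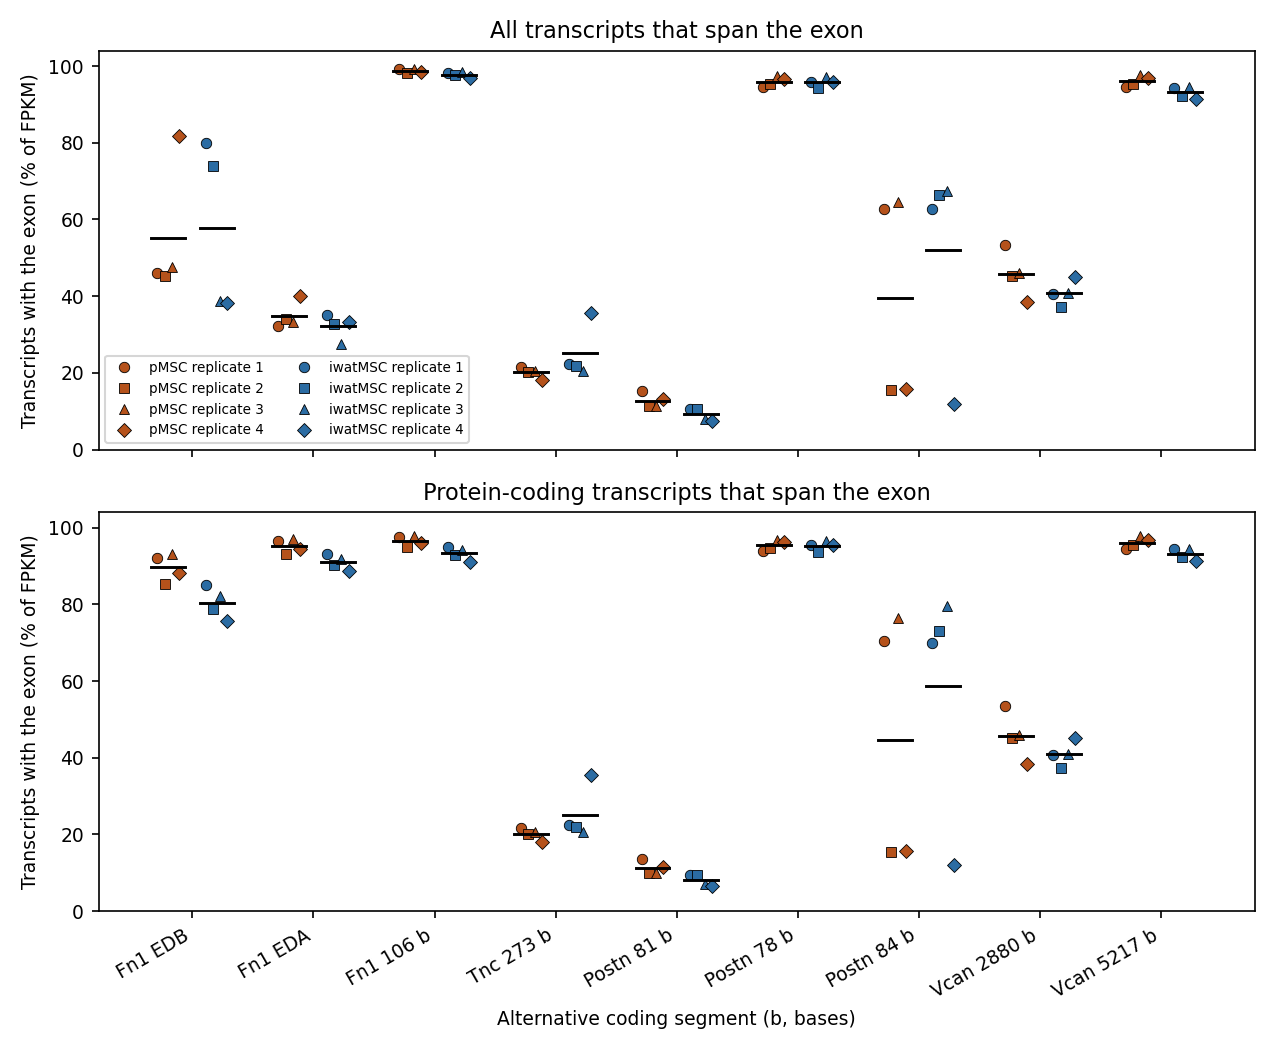
Share of spanning FPKM that carries each alternative coding exon, in percent, in each library, with the group mean as a bar; the upper panel counts all spanning transcripts and the lower panel protein-coding ones only. EDB and EDA separate by organ in the lower panel only, the Postn exon of 81 bases separates in both, and the Postn exon of 84 bases splits within both organs.

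Postn (ENSMUSG00000027750, chr3:54361109-54391037, plus strand) was carried by a pair of full-length transcripts that exchanged places. Postn-201 was at 19.0, 3.85, 32.5 and 2.56 FPKM in pMSC libraries 1 to 4 and at 25.9, 32.4, 71.2 and 7.99 FPKM in iwatMSC libraries 1 to 4. Postn-204 was at 4.56, 29.6, 6.84 and 20.4 FPKM in pMSC libraries 1 to 4 and at 8.27, 7.41, 12.4 and 87.6 FPKM in iwatMSC libraries 1 to 4. Postn-201 led in 5 libraries, by 3.14- to 5.74-fold, and Postn-204 led in pMSC libraries 2 and 4 and in iwatMSC library 4, by 7.69- to 10.96-fold. Together the pair held a steady 68.0% to 79.6% of Postn. They differ in the exon of 84 bases, which Postn-201 carries and Postn-204 skips.

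Inclusion of the Postn exon of 84 bases was accordingly 62.6%, 15.6%, 64.6% and 15.8% in pMSC libraries 1 to 4 and 62.8%, 66.3%, 67.4% and 11.8% in iwatMSC libraries 1 to 4. It took either about the higher or the lower level in both organs, with nothing between 15.8% and 62.6%, and the organs overlapped (39.7% ± 27.7 and 52.1% ± 26.9, SD, n = 4, exact p = 0.657). By contrast, the Postn exon of 81 bases was included in 15.2%, 11.3%, 11.3% and 13.1% in pMSC libraries 1 to 4 and in 10.6%, 10.7%, 7.90% and 7.44% in iwatMSC libraries 1 to 4. All pMSC libraries lay above all iwatMSC libraries (12.7% ± 1.85 and 9.16% ± 1.73, SD, n = 4, exact p = 0.0286), and among protein-coding transcripts the values were 11.2% ± 1.76 and 8.17% ± 1.55 (exact p = 0.0286). The gap between the nearest libraries of the 2 organs was small beside the spread. The exon is carried by Postn-202 (1.94 ± 0.295 FPKM in pMSCs and 3.06 ± 1.35 in iwatMSCs), Postn-203 (1.94 ± 0.493 and 2.44 ± 0.626) and the retained-intron transcript Postn-207 (0.584 ± 0.0807 and 0.737 ± 0.215), so the ratio rests on low levels. Postn-202 and Postn-203 did not pass the test by themselves (adjusted p = 0.392 and 0.568), and Postn-207 was below the filter. The exon of 78 bases that only Postn-206 skips was included in 95.9% ± 1.26 and 95.8% ± 1.15 (exact p = 0.8286). Postn-206 was at 1.58 ± 0.453 FPKM in pMSCs and 3.28 ± 1.30 in iwatMSCs (adjusted p = 0.168), the retained-intron transcript Postn-205 at 4.45 ± 2.82 and 9.06 ± 5.79 (adjusted p = 0.381), and the remaining 3 Postn transcripts had group means under 1 FPKM.

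Tnc (ENSMUSG00000028364, chr4:63959785-64047015, minus strand) had 4 transcripts, all coding, with more than 1 start. Tnc-204 alone begins at the upstream start, 26290 bases before the start of the other full-length forms, Tnc-201 and Tnc-203. It was at 85.6, 86.1, 57.5 and 67.1 FPKM in pMSC libraries 1 to 4 and at 72.2, 80.6, 69.0 and 28.4 FPKM in iwatMSC libraries 1 to 4. Its share of Tnc was 57.2%, 55.4%, 58.4% and 60.1% in pMSC libraries 1 to 4 and 52.7%, 54.2%, 54.9% and 20.5% in iwatMSC libraries 1 to 4. All pMSC libraries lay above all iwatMSC libraries (57.8% ± 1.98 and 45.6% ± 16.7, SD, n = 4, exact permutation p = 0.0286 in a comparison chosen after seeing the data). Without iwatMSC library 4 the iwatMSC mean was 53.9% ± 1.14, still below every pMSC library, and the exact p of 4 against 3 libraries cannot go below 0.0571. The usage test over all transcripts gave a log2 difference of 0.76 ± 0.50 (SE, adjusted p = 0.755).

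Tnc-201 held 21.01% ± 1.19 of Tnc in pMSCs and 28.3% ± 9.63 in iwatMSCs, and Tnc-203 held 19.8% ± 1.48 and 24.7% ± 6.77 (SD, n = 4). Of the 30 member transcripts in the usage test, the shares of 3 did not overlap between the organs (Tnc-201, Tnc-204 and Vcan-201), beside 4.98% of all transcripts tested. The pair from Tnc shares a total, so they are not separate observations. Tnc-203 differs from Tnc-201 by an exon of 273 bases, exon 14 of Tnc-203, which encodes one of the alternatively spliced type III repeats. This exon was included in 21.6%, 20.2%, 20.6% and 18.1% in pMSC libraries 1 to 4 and in 22.4%, 21.9%, 20.6% and 35.5% in iwatMSC libraries 1 to 4 (20.1% ± 1.48 and 25.1% ± 6.98, SD, n = 4, exact p = 0.0571). Without iwatMSC library 4 the difference narrowed from -5.01 to -1.54 percentage points. The short form Tnc-202 was at 1.78 ± 0.912 FPKM in pMSCs and 1.95 ± 0.505 in iwatMSCs.

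Vcan (ENSMUSG00000021614, chr13:89655312-89742509, minus strand) was mainly the forms known as V0 (Vcan-203, with exons 7 and 8) and V1 (Vcan-206, with exon 8 only). Vcan-206 was at 24.3, 30.3, 39.4 and 42.0 FPKM in pMSC libraries 1 to 4 and at 55.2, 31.6, 34.9 and 35.2 FPKM in iwatMSC libraries 1 to 4. Vcan-203 was at 30.3, 26.5, 34.1 and 26.4 FPKM in pMSC libraries 1 to 4 and at 40.2, 20.3, 25.7 and 33.0 FPKM in iwatMSC libraries 1 to 4. The organs overlapped for both, with adjusted p-values of 0.704 and 0.985. Vcan-206 held 46.6% ± 6.95 of Vcan in pMSCs and 49.4% ± 3.96 in iwatMSCs, and Vcan-203 held 40.8% ± 5.58 and 37.3% ± 2.98 (SD, n = 4).

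Vcan-201, the V3 form that skips both chondroitin sulfate exons, was at 2.62, 2.31, 1.23 and 1.498 FPKM in pMSC libraries 1 to 4 and at 4.81, 3.71, 2.95 and 5.81 FPKM in iwatMSC libraries 1 to 4. It was the only one of the 30 tested transcripts whose levels did not overlap between the organs, beside 14.3% of all transcripts tested, and it was the nearest of the 30 to the threshold. The log2 fold change was -0.87 ± 0.23 (SE, adjusted p = 0.0743, limma), with means of 1.91 ± 0.657 and 4.32 ± 1.25 FPKM (SD, n = 4). Its share of Vcan was 2.76% ± 1.25 in pMSCs and 5.54% ± 1.505 in iwatMSCs (SD, n = 4; usage adjusted p = 0.596). Exon 8, of 5217 bases, was included in 96.1% ± 1.44 of spanning FPKM in pMSCs and 93.2% ± 1.55 in iwatMSCs (exact p = 0.0571), and exon 7, of 2880 bases, in 45.8% ± 6.13 and 41.0% ± 3.20 (exact p = 0.229). The V2 form Vcan-202 stayed at 0.563 and 0.651 FPKM, the short Vcan-208 was at 5.92 ± 1.67 and 4.86 ± 2.99 FPKM, and the remaining 4 transcripts were under 1 FPKM.

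Tgfbi (ENSMUSG00000035493, chr13:56609523-56639562, plus strand) was almost a single transcript. Tgfbi-201 held 94.6% ± 1.19 of it in pMSCs and 96.3% ± 1.93 in iwatMSCs (SD, n = 4), and the other 4 transcripts stayed at means of 0.513 FPKM or less. Cthrc1 (ENSMUSG00000054196, chr15:39076932-39087121, plus strand) was mainly Cthrc1-201, which held 91.5% ± 7.24 and 89.8% ± 8.34. Cthrc1-201 was at 9.30, 9.59, 13.3 and 9.75 FPKM in pMSC libraries 1 to 4 and at 22.4, 15.7, 12.7 and 18.8 FPKM in iwatMSC libraries 1 to 4. The transcript therefore overlapped between the organs where the gene did not (log2 fold change -0.67 ± 0.19 SE, adjusted p = 0.0915). The shorter coding Cthrc1-204 was at 1.19, 1.21, 0 and 0 FPKM in pMSC libraries 1 to 4 and at 1.13, 0.870, 2.18 and 0 FPKM in iwatMSC libraries 1 to 4, and in the 3 libraries where it is listed at 0 Cthrc1-201 held 96.7% to 98.6% of the gene. Summed after multiplying by transcript length, the Cthrc1 gene was lower in pMSCs with a log2 fold change of -0.70 (adjusted p = 0.0109).

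Genes on the opposite strand overlap the members at 3 loci. The sources used here do not state whether strand was used in counting, so reads of both cannot be told apart where exons overlap. Apol7d overlaps the first exon of Fn1 and was at 40.3 FPKM in pMSCs and 43.7 in iwatMSCs, far below Fn1. Within Tnc lies 8030451A03Rik, at 32.0 and 27.5 FPKM. Within Vcan lie Gm16318 and Gm4117, at means of 0.11 FPKM or less, and no annotated gene overlaps Postn, Tgfbi or Cthrc1.

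Receptors, partners and proteases of these proteins gave further calls in both directions, led by Tgm2 among those higher in pMSCs and Itgb3 among those lower. Of 17 matrix receptors 14 were tested, and 6 were higher and 1 was lower in pMSCs, beside 9.02% and 10.4% of all genes, with a median log2 fold change of 0.39. Itgb3, the beta-3 integrin subunit, was lower in pMSCs (5.20 ± 1.46 against 24.0 ± 8.999 FPKM, log2 fold change -1.97, adjusted p = 0.000954). Mrc2, an endocytic collagen receptor, was higher (89.0 ± 8.56 against 44.9 ± 5.35, 0.98), as were Itga3 (2.28 ± 0.630 against 0.838 ± 0.243, 0.82) and Itgb5 (75.9 ± 7.69 against 44.5 ± 16.9, 0.82). The remaining receptors called higher were Sdc4 (126 ± 13.3 against 77.6 ± 19.95, 0.72), Itga5 (179 ± 22.05 against 120 ± 11.5, 0.58) and Itgb1 (314 ± 10.7 against 264 ± 19.7, 0.25). Of the versican-cleaving proteases 6 of 7 were tested and 3 were higher (9.02% of all genes), Adamts15 (log2 fold change 1.91), Adamts9 (1.24) and Adamts4 (0.96), and none was called lower. The Adamts15 values overlapped between the organs (9.28 ± 6.05 FPKM in pMSCs against 1.97 ± 2.53 in iwatMSCs). Adamts1 was lower in every pMSC library than in any iwatMSC library (31.2 ± 0.966 against 42.9 ± 12.1) but did not pass (adjusted p = 0.113, limma). The median of the 6 was 0.60, beside -0.03 over all genes, while Vcan itself did not pass the test.

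Of 16 matrix partners of fibronectin and periostin 15 were tested, and 5 were higher and 2 lower in pMSCs, beside 9.02% and 10.4% of all genes, with a median of 0.47. Tgm2, a transglutaminase that cross-links fibronectin, was at 10.1 ± 2.38 FPKM in pMSCs and 0.820 ± 0.259 in iwatMSCs (log2 fold change 2.60, adjusted p = 8.31e-06). Loxl2, a lysyl oxidase (48.5 ± 9.17 against 16.2 ± 5.75, 1.56), and Thbs1, thrombospondin 1 (550 ± 126 against 271 ± 31.7, 0.999), were also higher. The collagen VI chains Col6a1 (50.9 ± 8.00 against 87.3 ± 24.9, -0.73) and Col6a2 (39.3 ± 3.94 against 64.7 ± 18.8, -0.67) were lower, and the Col6a1 values overlapped between the organs. Of 21 versican and hyaluronan partners 14 were tested, none was called higher and 2 were called lower, which is near the background for lower genes (10.4%), with a median of 0.08. They were Xylt1 (1.81 ± 0.248 against 4.83 ± 0.482, -1.06), a xylosyltransferase that starts chondroitin sulfate chains, and Csgalnact2 (17.7 ± 0.704 against 21.2 ± 1.85, -0.25). Has2 had a higher mean in pMSCs (21.6 ± 7.18 against 10.5 ± 4.74, 1.02) but overlapped and did not pass (adjusted p = 0.0511, limma). Of the tenascin family only Tnxb was tested, at 7.19 ± 1.94 and 5.08 ± 2.53 FPKM (adjusted p = 0.246). Of 10 regulators of Fn1 splicing 8 were tested and 1 was called, beside 19.4% of all genes, so the count says nothing about the regulators as a group. It was Rbfox2, which was lower in pMSCs (20.9 ± 1.64 against 25.7 ± 2.10 FPKM, log2 fold change -0.28, adjusted p = 0.0403), with a median of -0.06 over the 8.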

How the data were processed

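RNA-seq of 4 pMSC and 4 iwatMSC libraries was analysed. The authors sequenced mRNA-enriched libraries on a BGISEQ instrument and deposited FPKM per Ensembl transcript, made with STAR and StringTie on GRCm38.p6 at default settings for paired reads. StringTie divides fragments among overlapping transcripts by estimation. The annotation release and a strand setting are not given in the sources used here. Transcripts were joined to GENCODE M21 by identifier (136372 of 136535, 99.88%; the unmatched held at most 0.051% of FPKM) and summed per gene. Depth is unknown, since FPKM hold no counts.

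Groups came from the labelled tissue. Genes, transcripts and transcript usage (log2 of a transcript + 1 minus log2 of the rest of its gene + 1) were compared two-sided on log2(FPKM + 1), by limma with trend (version 3.58.1, R 4.3.3), for features averaging at least 1 FPKM over 8 libraries, with Benjamini-Hochberg adjustment over all features and a threshold of 0.05. On that scale the fold changes of low genes are understated. Exon inclusion was tested with an exact permutation test (scipy 1.17.1). The fits were tested on simulated data. Alternatives were other pseudocounts (0.1 and 5), filters (none and 5 FPKM), TPM, median-of-ratios and quantile scaling, array weights, unequal-variance tests (the study ran one per transcript without adjustment; here it was also run on gene sums and always adjusted), protein-coding transcripts only, length-weighted sums, and leaving out libraries.

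All 6 genes and their transcripts at 1 FPKM or more were named, with up to 4 called genes of largest change per list and the 3 most similar genes per member. Some further genes of the lists were named beside these. The genes and lists were chosen with earlier results of these data known. No column lacked a sample.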

Additional observations from a re-analysis of the deposited data

Results flagged for a closer look

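A library stood far from the other 3 of its group for 9 of the 92 groups examined, by a gap large against the range of the group. Chance alone marks about 1 in 20 groups, and several of the 9 come from the same gene and library.

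Of these, 4 concern iwatMSC library 4. In iwatMSC library 4, Tnc-201 was at 59.1 FPKM (29.5 to 34.0 in the others), inclusion of the Tnc exon of 273 bases was 35.5% (20.6% to 22.4%), Postn-204 was at 87.6 FPKM (7.41 to 12.4) and inclusion of the Postn exon of 84 bases was 11.8% (62.8% to 67.4%). The Tnc gene level of that library, 139 FPKM, was within the range of its group.

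In pMSC library 4, inclusion of EDB over all spanning transcripts was 81.8% (45.2% to 47.7% in the others). In pMSC library 3, Cthrc1-201 was at 13.3 FPKM (9.30 to 9.75). In iwatMSC library 1, Vcan-206 was at 55.2 FPKM (31.6 to 35.2) and Fn1-208 at 2.01 FPKM (0.403 to 0.572). In pMSC library 2, Fn1-204 was at 12.1 FPKM (18.0 to 18.9).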

How the results depend on the processing

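The number of genes called (2589) was 1017 with an unequal-variance test on FPKM of gene sums and the same adjustment, 1428 with that test on log2 values and 1491 without pMSC libraries 1 and 2 (chosen after seeing the data), and 1802 to 2848 without any 1 library. The number of transcripts called (1367) was 473 and 761 with the unequal-variance tests and 871 to 1523 without 1 library. The number of usage calls (36) was 120 with a pseudocount of 5, 2145 with no filter on low values, 10 with a filter at 5 FPKM, 7 with the unequal-variance test and 22 to 78 without 1 library. The cause was not tested.

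Of the 6 genes, Fn1, Vcan and Tgfbi stayed uncalled under all 21 alternatives each, with log2 fold changes of 0.09 to 0.41, -0.24 to 0.06 and -0.32 to 0.15. Tnc passed without pMSC libraries 1 and 2 (-0.39), and its other changes were nearer 0. Postn passed with array weights (-1.24) and without iwatMSC library 1, with a range of -1.14 to -0.69 without 1 library. Cthrc1 lost its call with the unequal-variance test on FPKM (-0.70, adjusted p = 0.104) and without pMSC libraries 1 and 2 (-0.66), and its adjusted p was 0.00357 to 0.104 over all alternatives. Limited to protein-coding transcripts, the EDB difference turned from -2.47 to 9.34 percentage points and that of EDA passed at 4.28 points, because the transcripts with retained introns leave the ratio. The difference in the Postn exon of 81 bases was 2.72 to 4.06 points without 1 library. None of the 532 alternative values for member transcripts and none of the 491 for their usage changed a call.

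No paired analysis was possible because the titles of the deposited libraries share no replicate numbers between the organs, the numbers 1 to 4 used here only name libraries, and nothing in the sources used here links single libraries of the organs. Depth is unknown, so no limit from counts can be given, and transcript and exon values carry the division of fragments by StringTie.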
